A study of Mus musculus with 1 sample.

Results

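The 9 genes described here carry out the synthesis, vesicular storage, reuptake and breakdown of catecholamines. They are *Th*, *Gch1*, *Ddc*, *Dbh*, *Pnmt*, *Slc18a1*, *Slc18a2*, *Slc6a2* and *Maoa*, chosen by symbol from the 32285 genes of the count matrix, and all 9 had UMIs. The study profiled the adrenal medulla of mice at postnatal day (P) 15 by droplet-based single-cell RNA sequencing. The aim was to learn which cell types the growing medulla holds. Its methods name no genetic change and no treatment for these mice. They describe the mice of the study as of mixed background with backcrossing to CD1. Excess cortex was cut away by hand, and 1 library was made from 10000 viable cells of a pool of 10 adrenals (5 mice, mixed sex). Each UMI (unique molecular identifier) stands for 1 captured transcript, sequenced from the 3′ side. There is 1 library, hence no replicate and no test between samples, and every interval below is an exact 95% interval that covers counting error only.

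Catecholamine synthesis starts from tyrosine. Tyrosine hydroxylase (*Th*) makes L-DOPA with a tetrahydrobiopterin cofactor that depends on *Gch1*, aromatic amino acid decarboxylase (*Ddc*) makes dopamine, dopamine beta-hydroxylase (*Dbh*) makes noradrenaline inside the secretory vesicle, and phenylethanolamine N-methyltransferase (*Pnmt*) makes adrenaline in the cytosol. The vesicular monoamine transporters VMAT1 (*Slc18a1*) and VMAT2 (*Slc18a2*) load vesicles, the noradrenaline transporter (*Slc6a2*) returns released amine to the cell, and monoamine oxidase A (*Maoa*) deaminates amine in the cytosol. Chromaffin cells, the secretory cells of the medulla, are divided by whether they make adrenaline or stop at noradrenaline.

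The matrix held 11214 barcodes with 500 to 33809 UMIs, and 10139 cells (90.4%) passed the limits of the study's methods, with a median of 3567 UMIs. Cells were clustered without the 9 genes, and classes were named without them, so that their levels took no direct part in defining the classes. The study had, however, found the markers *Penk*, *Cox8b* and *Lix1* in this same library, in noradrenaline cells recognised by lack of *Pnmt*. Adrenaline chromaffin-like cells (1668) were those with chromaffin markers such as *Chga* and *Chgb* and without *Penk*, *Cox8b* and *Lix1*, which marked the noradrenaline chromaffin-like cells (377). *Penk* was found in 48.0% of the latter and 1.80% of the former. The other medullary classes were cycling chromaffin-like (92), transitioning noradrenaline-like (326) and transitioning adrenaline-like (92) cells, which had chromaffin and sustentacular markers together, and sustentacular-like cells (176), the glia-like support cells of the medulla. These 2731 medullary cells were 26.9% of all that passed, and cortex-like cells (3417 and 295 cycling) outnumbered them. The remaining classes were endothelial-like (1751 and 400 cycling), immune-like (657) and fibroblast-like (88). Levels are UMIs of a gene per 1000000 UMIs of the class (CPM). Median depth was lowest in sustentacular-like cells (1136.5 UMIs per cell) and, within the medulla, highest in transitioning adrenaline-like cells (6492.5).

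Promoter sequences are shown for *Ddc* and *Slc18a2*, which were at least 2-fold higher in noradrenaline than in adrenaline chromaffin-like cells, for *Th*, which was lower there by under 2-fold, and for *Gch1*, one of the genes also found outside the medulla. They are RefSeq sequences of build GRCm38.p6, the assembly also known as mm10, and each gives 100 bases before the transcription start and 10 from the start on. Capitals mark the cAMP response element TGACGTCA, the sequence that CREB proteins bind. *Ddc* has 2 starts, which reads at the 3′ end cannot tell apart.
Th (chr7:142899986-142900095, minus strand): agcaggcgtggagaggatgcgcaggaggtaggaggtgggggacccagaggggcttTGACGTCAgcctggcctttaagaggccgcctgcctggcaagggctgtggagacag
Slc18a2 (chr19:59260778-59260887, plus strand): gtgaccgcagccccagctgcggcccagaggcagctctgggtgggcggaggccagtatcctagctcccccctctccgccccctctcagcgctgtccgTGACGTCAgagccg
Ddc, upstream start (chr11:11898135-11898244, minus strand): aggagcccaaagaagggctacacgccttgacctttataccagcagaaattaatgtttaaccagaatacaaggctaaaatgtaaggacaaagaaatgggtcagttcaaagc
Ddc, downstream start (chr11:11890399-11890508, minus strand): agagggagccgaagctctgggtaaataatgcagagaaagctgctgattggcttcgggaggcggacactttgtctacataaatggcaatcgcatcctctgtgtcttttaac
Gch1 (chr14:47189404-47189513, minus strand): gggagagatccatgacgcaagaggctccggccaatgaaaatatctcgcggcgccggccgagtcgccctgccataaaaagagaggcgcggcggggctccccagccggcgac

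The motif search covered both strands of the 300 bases from 250 before each start, for the 6 of the 9 genes with an entry (*Th*, *Ddc*, *Dbh*, *Gch1*, *Slc18a2* and *Maoa*, with 7 starts). TGACGTCA was in the windows of *Th*, at positions -45 to -38 counted from 0 at the start, and of *Slc18a2*, at -4 to 3. It was in 1.79% of all 32851 promoter windows. The shorter TGACG, which each TGACGTCA also contains on both strands, was in the windows of *Dbh*, *Gch1* and *Maoa* as well and in 20.8% of all windows. GGGCGG, the GC box, was in those of *Th*, *Gch1*, *Slc18a2* and *Maoa* and in 35.7% of all windows. *Th*, with its element, was lower in noradrenaline than in adrenaline chromaffin-like cells, and *Slc18a2*, with its own, was higher. What the element does in these cells was not tested.

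**Figure D1:**
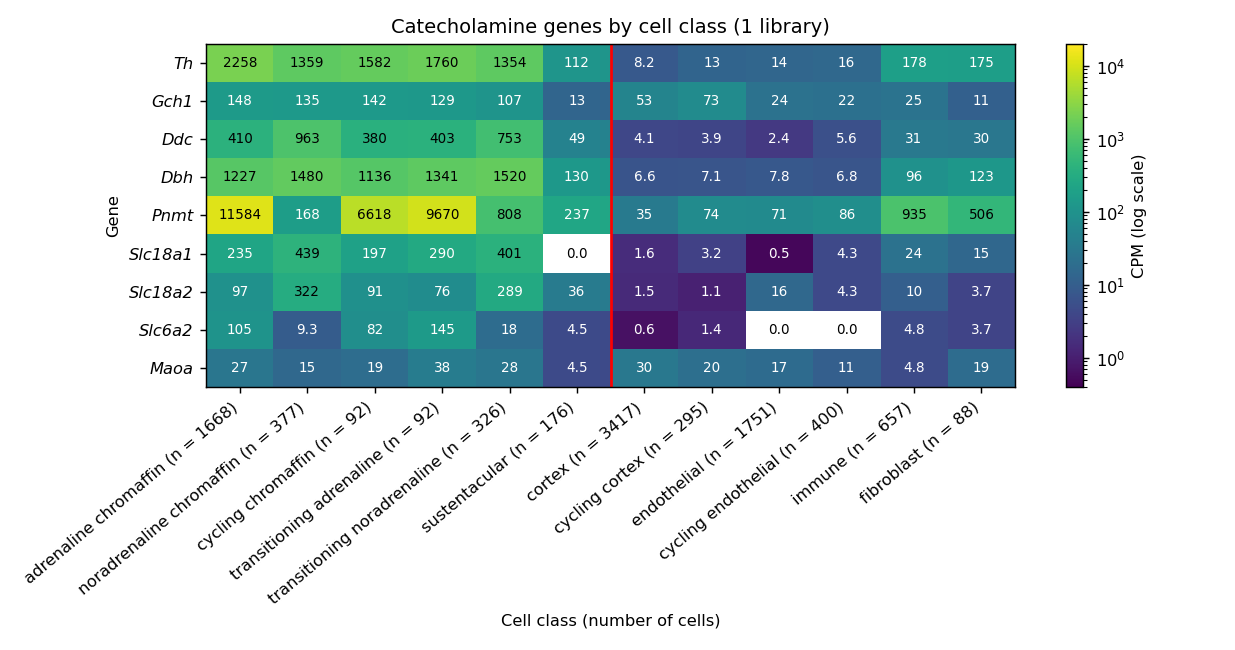
Level of each of the 9 genes (rows) in each cell class (columns, with the number of cells), in CPM on a logarithmic colour scale with the value printed in the cell and white for 0; the red line divides the medulla from the other classes. *Pnmt* spans the widest range among the chromaffin-like classes, from 168 to 11584 CPM, and *Maoa* stays between 4.5 and 38 CPM everywhere.

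*Th* (ENSMUSG00000000214, chr7:142892752-142931128, minus strand), the rate-limiting enzyme, was highest in adrenaline chromaffin-like cells at 2258 CPM (2224 to 2293). It was at 1760 CPM (1662 to 1862) in transitioning adrenaline-like and 1582 CPM (1481 to 1687) in cycling cells. Noradrenaline chromaffin-like cells had 1359 CPM (1296 to 1424) and transitioning noradrenaline-like cells 1354 CPM (1302 to 1408). The adrenaline side of the medulla therefore held the higher levels, and the noradrenaline pair did not differ beyond counting error. The ratio of noradrenaline to adrenaline chromaffin-like cells was 0.602 (0.572 to 0.632). A *Th* UMI was found in 98.2% of adrenaline and 85.1% of noradrenaline chromaffin-like cells, against 2.74% of endothelial-like cells, with median depths of 3161.5, 2650 and 1772 UMIs. Thinned to 1000 UMIs per cell, which leaves out cells with fewer, the shares were 85.3%, 62.0% and 1.76%, in the same order. The median cell had 2051 CPM in the adrenaline and 1094 CPM in the noradrenaline class.

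*Gch1* (ENSMUSG00000037580, chr14:47153895-47189413, minus strand), GTP cyclohydrolase 1, was nearly even among chromaffin-like cells. Adrenaline chromaffin-like cells had 148 CPM (139 to 157). It was at 142 CPM (113 to 176) in cycling, 135 CPM (115 to 156) in noradrenaline and 129 CPM (103 to 159) in transitioning adrenaline-like cells. The intervals of these 4 classes overlap. Transitioning noradrenaline-like cells were lowest at 107 CPM (93.0 to 123), below the interval of adrenaline chromaffin-like cells but overlapping those of the rest. The noradrenaline to adrenaline ratio was 0.909 (0.770 to 1.07). Outside the medulla *Gch1* had its highest levels in cycling cortex-like cells, at 73.2 CPM (63.5 to 83.8), and cortex-like cells, at 53.2 CPM (50.2 to 56.3).

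*Ddc* (ENSMUSG00000020182, chr11:11814101-11898144, minus strand) ran the other way from *Th*. It was highest in noradrenaline chromaffin-like cells at 963 CPM (910 to 1018) and next in transitioning noradrenaline-like cells at 753 CPM (714 to 793). Adrenaline (410.5 CPM, 395.9 to 425.4), transitioning adrenaline-like (403 CPM, 356 to 453) and cycling cells (380 CPM, 332 to 434) lay together below. The ratio of noradrenaline to adrenaline chromaffin-like cells was 2.35 (2.19 to 2.51), and no chromaffin-like class was between the 2 sets. In single cells the median was 896 CPM in noradrenaline and 356 CPM in adrenaline chromaffin-like cells. The share with a UMI was 84.4% and 70.3%, and 0.514% in endothelial-like cells. Thinning to 1000 UMIs widened the distance, to 56.6% and 32.2%.

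*Dbh* (ENSMUSG00000000889, chr2:27165233-27183200, plus strand) varied least among the 4 enzymes that lead from tyrosine to adrenaline. Its levels were 1520 CPM (1465 to 1576) in transitioning noradrenaline-like, 1480 CPM (1414 to 1548) in noradrenaline, and 1341 CPM (1255 to 1431) in transitioning adrenaline-like cells. Adrenaline chromaffin-like cells had 1227 CPM (1202 to 1253). Cycling cells were lowest at 1136 CPM (1051 to 1226). The noradrenaline to adrenaline ratio was 1.21 (1.15 to 1.27), above 1 in CPM, whereas counted as UMIs per cell it was 0.942, since noradrenaline cells held fewer UMIs in all. At least 1 UMI was found in 90.8% of adrenaline and 85.9% of noradrenaline chromaffin-like cells and in 1.66% of endothelial-like cells. *Th*, *Ddc* and *Dbh* were all 3 detected in 63.8% (61.4 to 66.1) of adrenaline and 64.2% (59.1 to 69.0) of noradrenaline chromaffin-like cells, which did not differ beyond counting error. Thinned to 1000 UMIs, the shares were 17.3% and 23.4%.

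*Pnmt* (ENSMUSG00000038216, chr11:98386450-98388181, plus strand), the enzyme that completes adrenaline, had the most UMIs of the 9 genes and the widest range. Adrenaline chromaffin-like cells had 11584 CPM (11506 to 11662), transitioning adrenaline-like cells 9670.4 CPM (9439 to 9907) and cycling cells 6618 CPM (6410.4 to 6830). Transitioning noradrenaline-like cells were at 808 CPM (768 to 850) and noradrenaline chromaffin-like cells at 168 CPM (146 to 192). Adrenaline and noradrenaline chromaffin-like cells thus differed 69.0-fold (60.4 to 79.2). *Pnmt* took no direct part in their clustering or names. The naming markers, however, came from the same library, from noradrenaline cells that the study recognised by lack of *Pnmt*. A low level in that class was therefore built into the names and is no independent result. The transitioning noradrenaline-like level was 4.82 times (4.17 to 5.58) the noradrenaline chromaffin-like level and 14.3-fold (13.6 to 15.1) below the adrenaline level. A *Pnmt* UMI was found in 15.4% of noradrenaline chromaffin-like cells at a median depth of 2650 UMIs and in 9.42% of endothelial-like cells at 1772. Thinned to 1000 UMIs, these shares were 7.61% (5.07 to 10.9) and 5.27% (4.19 to 6.54), with overlapping intervals. In transitioning noradrenaline-like cells the thinned share was 18.5% (14.4 to 23.2), above both. The level of noradrenaline chromaffin-like cells was above the 71.2 CPM (63.3 to 79.9) of endothelial-like cells. It was below the 935 CPM (885 to 986) of immune-like and the 506 CPM (425 to 599) of fibroblast-like cells. The transitioning noradrenaline-like level was also below that of immune-like cells.

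The class level of *Pnmt* hides how unevenly the cells shared it. In transitioning noradrenaline-like cells 226 of 326 had none, 51 had over 1000 CPM, and the tenth of cells with the most UMIs (33) held 88.9% of the class's *Pnmt* UMIs. Among noradrenaline chromaffin-like cells 319 of 377 had none and 18 were over 1000 CPM. Adrenaline chromaffin-like cells had a median of 11981 CPM, with 68 of 1668 at 0, and no transitioning adrenaline-like cell was at 0. The transitioning noradrenaline-like average therefore came from a minority of cells rather than from a low level in all. These cells were also set apart by *Penk*, one of the 3 noradrenaline markers. The 162 with a *Penk* UMI had *Pnmt* in 26.5% (19.9 to 34.0) and 393 CPM (358 to 431). The 164 without had it in 34.8% (27.5 to 42.6) and 1458 CPM (1372 to 1548). The intervals of the shares overlap and those of the levels do not, with median depths of 6496.5 and 3875.5 UMIs. The level intervals leave out the spread between cells, and few cells held most UMIs, so a difference by *Penk* is not shown. Both transcripts were in 43 of the 326 cells. Of the cycling cells, 6 of 10 with *Penk* and 78 of 82 without it had *Pnmt*. Scrublet called 0.613% of transitioning noradrenaline-like cells as doublets and none of the noradrenaline chromaffin-like cells, and the part of doublets in these values was not tested further.

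**Figure D2:**
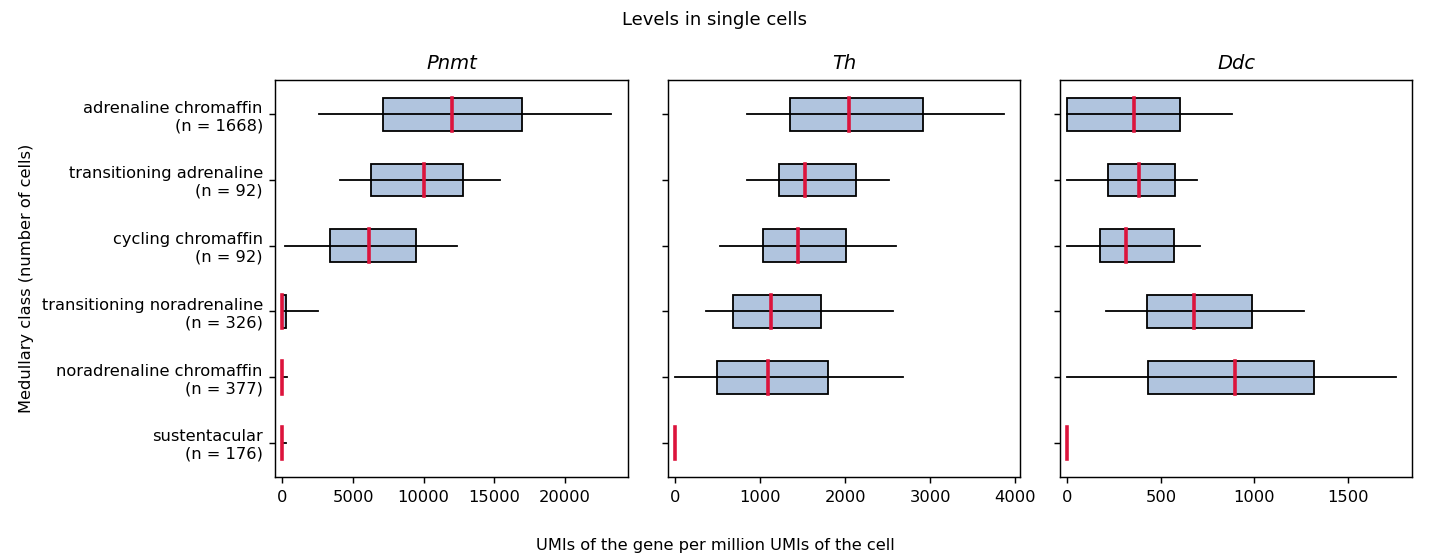
Levels of *Pnmt*, *Th* and *Ddc* in single cells of each medullary class, in UMIs of the gene per 1000000 UMIs of the cell; boxes span the quartiles with the median as a red line and lines run from the 10th to the 90th percentile. The median *Pnmt* level is 0 in transitioning noradrenaline, noradrenaline and sustentacular cells and 11981 CPM in adrenaline cells, whereas *Th* boxes of the 5 chromaffin-like and transitioning-like classes overlap.

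*Slc18a1* and *Slc18a2*, the vesicular transporters, were both higher on the noradrenaline side. *Slc18a1* (ENSMUSG00000036330, chr8:69037711-69089235, minus strand) was at 439 CPM (404 to 477) in noradrenaline and 401 CPM (372 to 430) in transitioning noradrenaline-like cells. It was at 290 CPM (251 to 333) in transitioning adrenaline-like cells, and adrenaline chromaffin-like cells had 235 CPM (224 to 246). The lowest level, 197 CPM (163 to 237), was in cycling cells. The noradrenaline to adrenaline ratio was 1.87 (1.70 to 2.06), just under 2-fold. *Slc18a2* (ENSMUSG00000025094, chr19:59260896-59296012, plus strand) differed more. It was at 322 CPM (292 to 355) in noradrenaline and 289 CPM (265 to 314) in transitioning noradrenaline-like cells, against 97.1 CPM (90.1 to 104) in adrenaline, 90.8 CPM (68.0 to 119) in cycling and 76.1 CPM (56.9 to 99.8) in transitioning adrenaline-like cells. The noradrenaline to adrenaline ratio of *Slc18a2* was 3.32 (2.94 to 3.75).

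VMAT2 thus took a larger part of the vesicular transporter UMIs on the noradrenaline side. *Slc18a2* made up 42.3% (39.2 to 45.5) of the UMIs of both genes in noradrenaline chromaffin-like cells and 41.9% (39.2 to 44.6) in transitioning noradrenaline-like cells. The share was 29.2% (27.4 to 31.1) in adrenaline, 31.5% (24.6 to 39.2) in cycling and 20.8% (15.9 to 26.4) in transitioning adrenaline-like cells. Both transporters were detected together in 141 of 377 noradrenaline and 330 of 1668 adrenaline chromaffin-like cells. *Slc18a2* without *Slc18a1* was found in 47 and 149 cells of these classes, *Slc18a1* without *Slc18a2* in 105 and 551, and neither in 84 and 638. Some chromaffin-like cells thus carried both transcripts. Whether the rest carry 1 transporter each cannot be told from detection at this depth.

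*Slc6a2* (ENSMUSG00000055368, chr8:92960079-93001667, plus strand), the noradrenaline transporter of the cell surface, followed *Pnmt* and not noradrenaline. It was highest in transitioning adrenaline-like cells at 145 CPM (118 to 176), then in adrenaline chromaffin-like cells at 105 CPM (97.6 to 113) and cycling cells at 82.2 CPM (60.6 to 109). Transitioning noradrenaline-like cells had 18.1 CPM (12.5 to 25.2) and noradrenaline chromaffin-like cells 9.28 CPM (4.79 to 16.2). The adrenaline level was 11.3 times (6.43 to 22.0) that of noradrenaline chromaffin-like cells, where 12 UMIs were found in all. At least 1 UMI was found in 31.4% of adrenaline and 2.65% of noradrenaline chromaffin-like cells and in 0 of 1751 endothelial-like cells. A limit of 3 counts allows up to 0.171% of those cells with a UMI, which is no limit on the cells that express the gene.

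*Maoa* (ENSMUSG00000025037, chrX:16619698-16687818, plus strand), the breakdown enzyme, was low in all classes and was the gene least tied to the medulla. Transitioning adrenaline-like cells had 38.1 CPM (24.9 to 55.8), cortex-like cells 30.2 CPM (27.9 to 32.6), transitioning noradrenaline-like cells 27.6 CPM (20.6 to 36.2) and adrenaline chromaffin-like cells 27.4 CPM (23.8 to 31.5). Each of these neighbours overlaps the next. Noradrenaline chromaffin-like cells had 15.5 CPM (9.45 to 23.9) from 20 UMIs, and the noradrenaline to adrenaline ratio was 0.564 (0.337 to 0.894). All 9 genes reached their highest class level in the medulla, as did 45.8% of the 13694 genes with at least 50 UMIs over the 12 classes, but for *Maoa* this rests on 26 UMIs and on an interval that covers the cortex-like level.

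**Figure D3:**
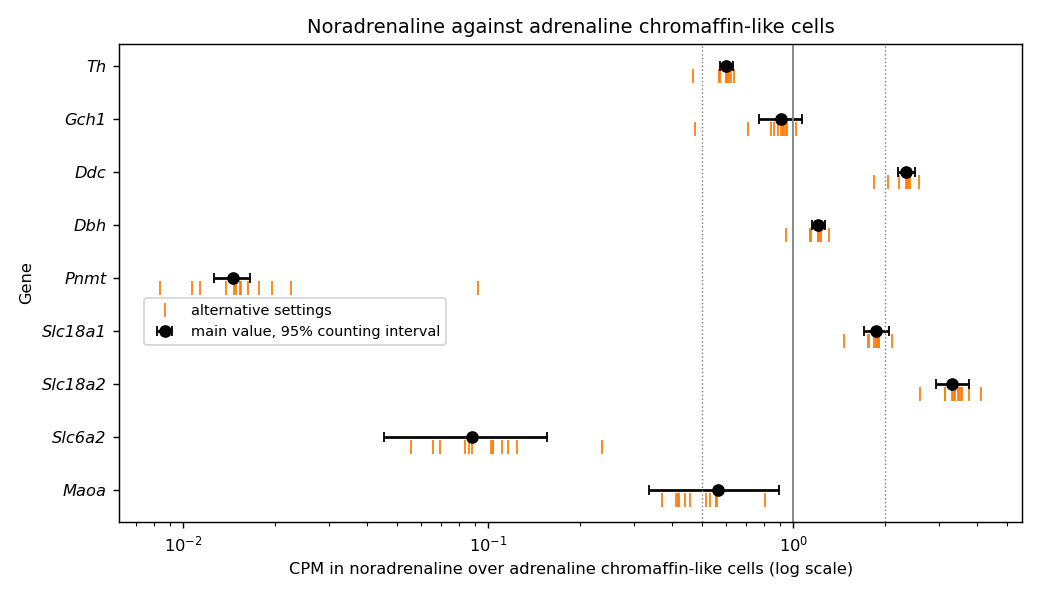
Ratio of the CPM in noradrenaline to that in adrenaline chromaffin-like cells for each gene, on a logarithmic axis; black points with bars are the main values with their 95% counting intervals, orange ticks the values under the alternative settings, the solid line 1 and the dotted lines 2-fold either way. *Ddc* and *Slc18a2* lie right of 2-fold at 2.35 and 3.32, and *Pnmt* and *Slc6a2* far to the left at 0.0145 and 0.0885.

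Between noradrenaline and adrenaline chromaffin-like cells, 2 of the 9 genes were at least 2-fold higher in the former (*Ddc*, *Slc18a2*), as were 4.61% of the 9705 genes with at least 50 UMIs over both classes. Another 2 were at least 2-fold lower (*Pnmt*, *Slc6a2*), against a background of 7.02%. The remaining 5 were under 2-fold. Low *Pnmt* went with the choice of *Penk*, *Cox8b* and *Lix1* as markers. The calls of *Pnmt* that rest on these markers, here and below, are therefore no independent result. The median log2 ratio of the 9 genes was -0.14, beside -0.0011 over all genes compared. The genes of 1 pathway therefore lay on both sides, with the enzymes and transporters each divided. The chromaffin-like and transitioning-like cells were also split by their own UMIs of *Penk*, *Cox8b* and *Lix1* in place of clusters. Cells with at least 2 (663) over cells with none (1682) had ratios of 0.0924 for *Pnmt* and 0.235 for *Slc6a2*. Both were in the same direction as between the classes but nearer to 1. For *Pnmt* that direction was again built into the markers.

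The transitioning noradrenaline-like cells carried 1 of the 9 genes at least 2-fold higher than noradrenaline chromaffin-like cells, *Pnmt* (background 4.47% higher), and none lower (background 0.184%). *Ddc* was at 0.782 (0.724 to 0.844) of the noradrenaline chromaffin-like level. *Slc6a2* was at 1.95 (0.983 to 4.13), from 34 and 12 UMIs, too few for it to be judged here. Against adrenaline chromaffin-like cells the same cells were at least 2-fold higher for 1 gene, *Slc18a2* at 2.98 (2.66 to 3.33), where the background was 7.58%, and lower for 2, *Pnmt* and *Slc6a2*, where it was 5.14%. These comparisons share classes and are not independent of each other. Transitioning adrenaline-like cells differed from adrenaline chromaffin-like cells by under 2-fold for all 9 genes, with 6.47% of genes past 2-fold in either direction. *Slc6a2* was at 1.38 (1.11 to 1.71) and *Th* at 0.779 (0.734 to 0.826) of the adrenaline level there.

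Cycling chromaffin-like cells also stayed within 2-fold of adrenaline chromaffin-like cells for all 9 genes, where 11.4% of genes were past 2-fold in either direction. *Pnmt* was at 0.571 (0.553 to 0.590) and *Th* at 0.700 (0.655 to 0.748) of that level, and *Maoa*, on 11 UMIs, at 0.687 (0.337 to 1.26). The cycling class was not divided by hormone, and 10 of its 92 cells had a *Penk* UMI. Compared with noradrenaline chromaffin-like cells, 2 genes were higher (background 6.9%) and 3 lower (background 6.3%). The higher were *Pnmt* and *Slc6a2*, and the lower *Ddc*, *Slc18a1* and *Slc18a2*. Transitioning adrenaline-like cells were higher than noradrenaline chromaffin-like cells for *Pnmt* and *Slc6a2* (background 5.27%) and lower for *Ddc* and *Slc18a2* (background 5.4%).

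**Figure D4:**
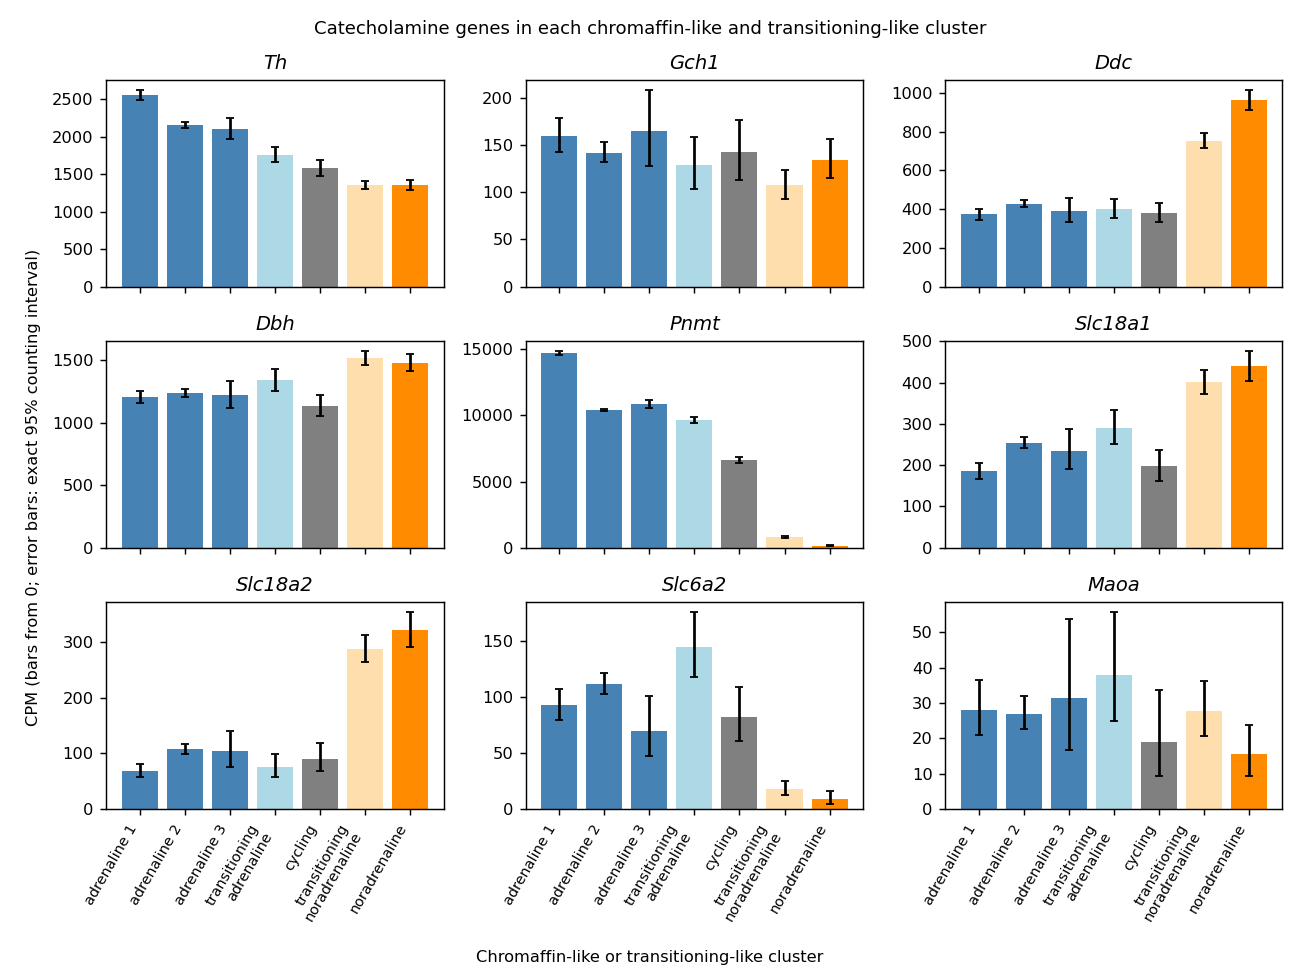
CPM of each gene in the 7 chromaffin-like and transitioning-like clusters, with bars from 0 and 95% counting intervals; blue marks the 3 adrenaline clusters, light blue transitioning adrenaline, grey cycling, light orange transitioning noradrenaline and orange noradrenaline cells. The adrenaline clusters range from 10423 to 14720 CPM for *Pnmt* and from 68.2 to 108 CPM for *Slc18a2*, and *Gch1* intervals overlap among most clusters.

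Adrenaline chromaffin-like cells fell into 3 clusters. The first (807 cells, median 2294 UMIs) and second (743 cells, 5549 UMIs) differed in depth, and the third (118 cells, 2701 UMIs) was led by immediate early genes such as *Atf3* and *Egr3*. None of the 9 genes was past 2-fold in any of them against the rest, where 3.22%, 1.99% and 9.26% of genes were. Within that range the shallow cluster had the most *Pnmt* and *Th*, at 14720.2 CPM (14550 to 14892) and 2559 CPM (2488 to 2631). It had the least *Slc18a1* and *Slc18a2*, at 186 CPM (167 to 206) and 68.2 CPM (57.1 to 80.9). The second cluster had 10423 CPM (10333 to 10513) of *Pnmt*, 2154 CPM (2114 to 2196) of *Th*, 254 CPM (240 to 269) of *Slc18a1* and 108 CPM (98.8 to 117) of *Slc18a2*. The median log2 ratio of all genes against the rest was -0.19 in the shallow and 0.17 in the second cluster, so a *Pnmt* ratio of 1.41 (1.39 to 1.43) and a *Slc18a2* ratio of 0.635 (0.522 to 0.768) in the shallow cluster stand against a shifted centre. The part of depth in these differences was not tested. In the immediate early gene cluster *Slc6a2* was at 0.657 (0.437 to 0.952) of the other adrenaline clusters, from 29 UMIs.

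The number of the 9 genes detected in a cell had a median of 5 in adrenaline, 4 in noradrenaline, 5 in transitioning noradrenaline-like and 6 in cycling and transitioning adrenaline-like cells. It followed depth in part, since after thinning to 1000 UMIs the median was 3 in each of these 5 classes. All 9 were found together in 26 adrenaline chromaffin-like cells. *Th*, *Ddc*, *Dbh* and *Pnmt*, the 4 enzymes from tyrosine to adrenaline, were all detected in 61.5% (59.1 to 63.9) of adrenaline and 11.1% (8.15 to 14.8) of noradrenaline chromaffin-like cells. They were all detected in 83.7% (74.5 to 90.6) of transitioning adrenaline-like and 24.8% (20.2 to 29.9) of transitioning noradrenaline-like cells. Median depths of these classes were 3161.5, 2650, 6492.5 and 4643.5 UMIs, in that order, and the shares of the 4 enzymes were not thinned. *Th*, *Ddc* and *Dbh* together, thinned to 1000 UMIs, were in 17.3%, 23.4%, 15.2% and 25.6% of cells, in the same order. A higher share in the deeper transitioning adrenaline-like cells is therefore not shown.

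Sustentacular-like cells had no UMI of any of the 9 genes in 71.6% of cells, against 76.9% of endothelial-like cells, at median depths of 1136.5 and 1772 UMIs. They held 112 CPM (72.3 to 165) of *Th*, 130 CPM (86.9 to 186) of *Dbh* and 237 CPM (178 to 310.0) of *Pnmt*. These levels were above those of endothelial-like cells, 14.1 CPM (10.7 to 18.2), 7.78 CPM (5.32 to 10.98) and 71.2 CPM (63.3 to 79.9). They were below the 2258, 1227 and 11584 CPM of adrenaline chromaffin-like cells. Against immune-like and fibroblast-like cells they were not raised beyond counting error. Their *Th* and *Dbh* intervals overlapped those of immune-like cells, 178 CPM (157 to 201) and 96.1 CPM (80.8 to 113). These intervals also overlapped those of fibroblast-like cells, 175 CPM (129 to 233) and 123 CPM (84.5 to 172). *Pnmt* was below the 935 CPM (885 to 986) of immune-like and the 506 CPM (425 to 599) of fibroblast-like cells. No UMI of *Slc18a1* was found in 176 cells, and a limit of 3 counts then allows up to 13.4 CPM, with no limit on the cells that express it. *Slc18a2* had 8 UMIs in 7 cells, or 35.8 CPM (15.4 to 70.5).

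For the classes that should not make catecholamines, each gene was set against the UMIs it would have if all of them were chromaffin RNA in the ratio to *Chga* (chromogranin A) that all chromaffin-like cells gave together. A ratio near 1 means that the gene was found as often as that mixture alone would bring. The mixture is an approximation, since *Chga* itself was at 23617 CPM in adrenaline and 9979 CPM in noradrenaline chromaffin-like cells. The noradrenaline to adrenaline ratio of *Chga* was thus 0.423. *Slc18a2* (3.32), *Ddc* (2.35), *Slc18a1* (1.87), *Dbh* (1.21), *Gch1* (0.909) and *Th* (0.602) lay above it. The interval of *Maoa* (0.564, 0.337 to 0.894) included it, and *Pnmt* (0.0145) and *Slc6a2* (0.0885) lay below. RNA from noradrenaline cells alone would therefore bring more of the genes above it per *Chga* UMI, and lower ratios than those below. It would bring less *Pnmt* and *Slc6a2*. Such a source was not tested. In immune-like cells, where *Chga* reached 1242 CPM and Scrublet called 11.7% of cells as doublets, the 9 genes were at 0.872 to 2.70 times the expected number. *Pnmt* there had 935 CPM (885 to 986), the most outside the medulla, and was at 1.67 times (1.58 to 1.76). In sustentacular-like cells *Slc18a2* was at 9.23 (3.98 to 18.2), *Dbh* at 3.87 (2.59 to 5.56), *Ddc* at 3.66 (1.83 to 6.54), *Th* at 2.23 (1.44 to 3.29) and *Pnmt* at 1.12 (0.838 to 1.46) times the expected number. With *Chgb*, a granin gene also, in place of *Chga*, *Slc18a2* was at 5.34 (2.30 to 10.5), *Dbh* at 2.24 and *Ddc* at 2.11 with intervals above 1, *Th* at 1.29 (0.835 to 1.90) and *Pnmt* at 0.647 (0.485 to 0.846).

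**Figure D5:**
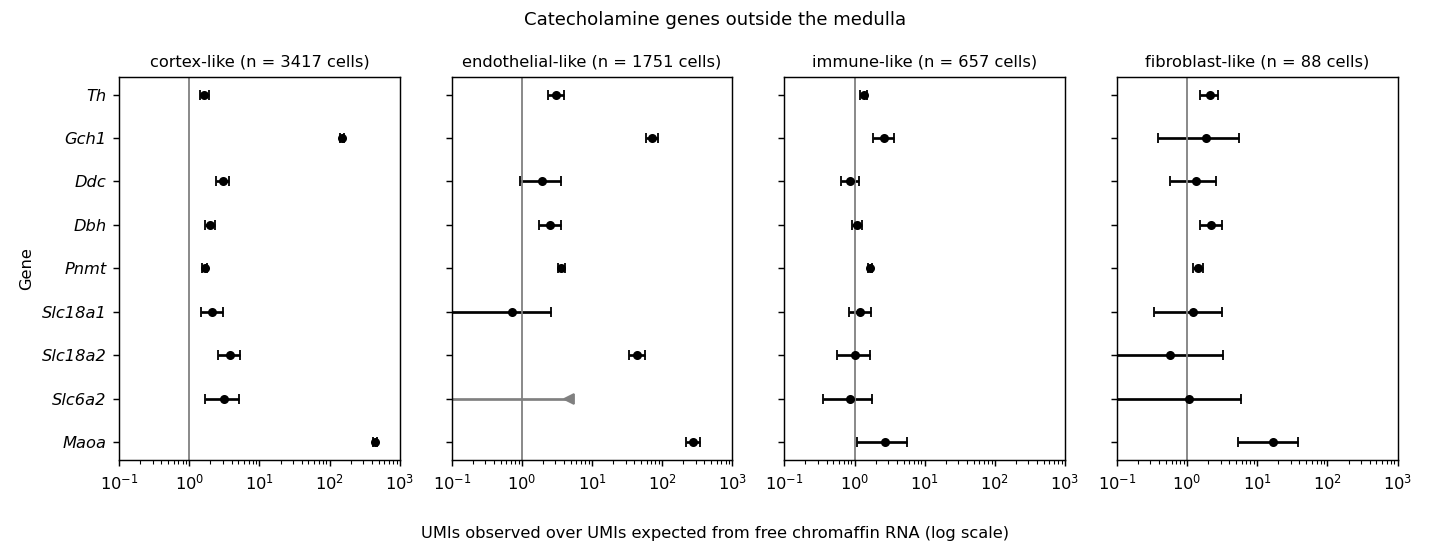
UMIs observed over UMIs expected from chromaffin RNA for each gene in 4 classes outside the medulla, on a logarithmic axis cut off at 0.1, with 95% counting intervals; the grey line is 1 and the grey arrow marks the upper bound where no UMI was found. *Gch1* and *Maoa* lie far to the right in cortex-like cells (149 and 446) and, with *Slc18a2*, in endothelial-like cells (72.6, 277 and 44.2).

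Against that level, *Gch1* and *Maoa* stood out in cortex-like cells. *Gch1* had 1155 UMIs where 7.73 were expected, a ratio of 149 (141 to 158), and *Maoa* 655 where 1.47 were expected, a ratio of 446 (412 to 481). The other 7 genes were at 1.64 to 3.80 times the expected number. The *Gch1* share was 26.3% of cortex-like cells, against 5.20% of endothelial-like cells, and 5.77% and 2.84% after thinning to 1000 UMIs. Among the 4 cortex-like clusters *Gch1* was at 68.7 CPM (61.1 to 77.0) in the one led by *Akr1d1*, 65.7 CPM (60.1 to 71.6) in that led by *Pik3c2g* and *Akr1c18* and 54.4 CPM (47.5 to 62.1) in that led by *Cyp11b1*, the enzyme that makes corticosterone. It was lower in the cluster led by *Ly6d* and *Wnt4*, at 23.2 CPM (19.3 to 27.5), which had the most *Maoa*, at 39.4 CPM (34.3 to 44.9). That cluster also carried endothelial markers, with *Kdr* in 30.7% of cells at 232 CPM and *Emcn* at 166 CPM, against 2.98 to 7.14 and 2.71 to 5.78 CPM in the other 3 clusters, and the part of these cells in the *Gch1* and *Maoa* values was not tested. Cycling cortex-like cells had ratios of 95.2 (82.6 to 109) for *Gch1* and 140 (107 to 181) for *Maoa*.

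In endothelial-like cells the vesicular transporter *Slc18a2* exceeded its expected number. It had 65 UMIs in 60 cells where 1.47 were expected, a ratio of 44.2 (34.1 to 56.4), with at most 2 UMIs in any cell, and made up 97.0% (89.6 to 99.6) of the UMIs of both VMAT genes there. *Slc18a1* had 2 UMIs where 2.78 were expected, and *Slc6a2* none. The share of cells with *Slc18a2* was 3.43%, against 0.819% of cortex-like cells at a greater median depth of 5137 UMIs. Both endothelial-like clusters had it, at 16.5 CPM (12.2 to 21.9) and 14.1 CPM (8.21 to 22.6). In cycling endothelial-like cells the level was 4.34 CPM (1.75 to 8.94), below that of the other endothelial-like cells. *Gch1* and *Maoa* were at 72.6 (59.0 to 88.5) and 277 (216 to 349) times the expected number in endothelial-like cells, with 23.8 and 17.3 CPM. *Th*, *Ddc*, *Dbh* and *Pnmt* were at 1.96 to 3.65 times. In fibroblast-like cells *Maoa* had 5 UMIs, a ratio of 16.5 (5.37 to 38.6), and the other 8 genes were at 0.577 to 2.20.

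Of 31 other genes of the pathway, on a list of cofactor, cosubstrate, uptake, breakdown and related enzyme genes, 30 had a row and *Rnls* was not analysed here. Between noradrenaline and adrenaline chromaffin-like cells none was at least 2-fold higher and 4 were at least 2-fold lower, beside the 4.61% and 7.02% of all genes compared, while 15 were under 2-fold and 11 had too few UMIs. *Gchfr*, the regulatory protein that restrains GTP cyclohydrolase, had 10.1 CPM (5.35 to 17.2) and 63.5 CPM (57.8 to 69.5), in that order. *Mat2a*, which makes the S-adenosylmethionine that *Pnmt* uses as methyl donor, had 490.2 CPM (452.8 to 529.9) and 1248 CPM (1223 to 1274), which gave a ratio of 0.393 (0.362 to 0.426). *Slc31a1*, an importer of the copper that *Dbh* needs, had 67.3 CPM (53.9 to 83.0) and 250.4 CPM (239.0 to 262.1). *Slc6a4*, the serotonin transporter, had 44.1 CPM (33.4 to 57.1) and 489 CPM (473 to 505), which gave a ratio of 0.0902 (0.0682 to 0.117) near that of *Slc6a2*. Cofactor recycling through *Qdpr* and *Pcbd1* stayed within 2-fold, at ratios of 0.695 (0.623 to 0.773) and 1.06 (0.942 to 1.19). Genes of serotonin synthesis had few UMIs, 2 of *Tph1* and 3 of *Tph2* in adrenaline chromaffin-like cells.

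Of the 24 genes on this list with at least 50 UMIs over the classes, 11 had their highest level in a medullary class and 13 outside the medulla, close to the background of 45.8% in the medulla. *Slc6a3*, the dopamine transporter, had no UMI. The cortex-like class was highest for *Aldh2* (669 CPM, 658 to 680), *Akr1b3* (799 CPM, 787 to 811) and *Akr1a1* (472 CPM, 463 to 481), which act on aldehydes such as those that monoamine oxidase forms. It was also highest for *Pts* (60.9 CPM, 57.6 to 64.2) and *Spr* (94.9 CPM, 90.9 to 99.1), the enzymes that follow *Gch1* in cofactor synthesis. *Gchfr* (398 CPM, 379 to 418) and the sulfotransferase *Sult1a1* (220 CPM, 205 to 234) were highest in endothelial-like cells. The subunit genes of amino acid uptake were highest in immune-like cells (*Slc3a2*, 207 CPM, 184 to 231) and cycling cortex-like cells (*Slc7a5*, 20.1 CPM, 15.3 to 26.1), and *Hdc* (37.8 CPM, 31.0 to 45.7) was highest in the latter too. *Aldh1a1*, *Aldh3a2* and *Nnmt* were highest in fibroblast-like cells on 9, 5 and 1 UMIs. *Maob*, the other monoamine oxidase, had 113 CPM (89.0 to 141) in transitioning adrenaline-like, 84.9 CPM in adrenaline and 42.5 CPM in noradrenaline chromaffin-like cells. These levels were above the 8.10 CPM of cortex-like cells. That cortex-like level was not set against the number expected from chromaffin RNA.

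Genes with the most similar pattern were sought by the Pearson correlation of log2(CPM + 10) over 14 units, the 8 medullary clusters and the 6 classes outside the medulla, among 11244 genes. These units share 1 library and their free RNA, so the values are descriptions. *Th* was most like *Dlk1* (r = 0.998), *Chga* and *Pcp4*, and *Dbh* most like *Stmn2* (0.996), *Pcsk1n* and *Resp18*. *Pnmt* was most like the transcription factor gene *Isl1* (0.976), followed by *Slc6a4* (0.968) and *Fxyd2* (0.967). *Slc6a2* had *Lrp1b* (0.992), *Rph3a* and *Kcnip1*, and *Ddc* had *Zcchc18* (0.995), *Eml5* and *Riiad1*. The vesicular transporters shared none of their 3 nearest genes, which were *Scn3a* (0.996), *Syt17* and *Celf3* for *Slc18a1* and *Ralgds* (0.982), *Kbtbd11* and *Tafa1* for *Slc18a2*. For *Gch1* they were *Dctn3* (0.976), *Sez6l2* and *Clpb*, and for *Maoa* 2310009B15Rik (0.900), *Slc11a2* and *Palmd*, the lowest values of the 9.

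Both sexes were in the pool. Cells with *Xist* but no Y-linked UMI (40 noradrenaline and 280 adrenaline chromaffin-like) were set beside cells with a Y-linked but no *Xist* UMI (124 and 675). A single UMI was enough for this, and 5 noradrenaline and 12 adrenaline cells had both kinds. The sets are therefore not proven to come from different mice. Median depths were 2709.5 and 3086.5 UMIs in the first set and 3552 and 4419 in the second. The noradrenaline to adrenaline ratio of *Ddc* was 2.58 (2.14 to 3.09) in the first and 2.41 (2.18 to 2.65) in the second set, and that of *Slc18a2* 3.30 (2.40 to 4.50) and 4.13 (3.47 to 4.91). *Th* was at 0.605 (0.522 to 0.697) and 0.613 (0.569 to 0.661), and *Pnmt* at 0.0224 (0.0159 to 0.0308) and 0.0106 (0.00823 to 0.0136). Every one of these 4 genes lay on the same side of 1 in both sets of cells, which are parts of 1 library and no replicates. For *Pnmt* that side was built into the markers. Its intervals in the sets did not overlap, while those of *Ddc*, *Slc18a2* and *Th* did, and the cause was not tested. *Gch1* was at 0.474 (0.240 to 0.849) on 12 noradrenaline UMIs in the first set and 1.02 (0.798 to 1.28) in the second, with overlapping intervals.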

How the data were processed

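Single-cell RNA sequencing (10x Genomics 3′ v3.1) of 1 library was analysed. The deposited values are raw UMI counts (genes by barcodes) from the authors' run of Cell Ranger 4.0.0 on build mm10, per the labels, and are not normalised. Barcodes had been filtered before deposit, and each had at least 500 UMIs. Depth was 51421499 UMIs over 11214 barcodes, which sets the counting intervals given.

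Cells with 500 to 5000 genes and at most 20% mitochondrial UMIs were kept. They were clustered with Seurat 5.3.0 (R 4.3.3; 2000 variable features, 10 principal components, Louvain, resolution 0.4) after removal of the 9 genes from the variable features. Clusters were named where at least 3 markers of a list were in 50% of cells (25% for noradrenaline, sustentacular, cycling, mast and neuron lists), with *Pnmt* and the other 8 genes left out. Medullary cells were extracted in 3 passes. Clusters with markers of more than 1 type, 1 unnamed cluster and the cells left out of the medulla were in no comparison. Doublets were called with Scrublet (scanpy 1.11.5; 669 cells, 6.60%) and kept. All fits ran on 1 thread.

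Levels are summed UMIs per 1000000, with exact Poisson intervals. Shares have Clopper-Pearson and ratios conditional binomial intervals, computed with scipy 1.17.1 (Python 3.11.15, numpy 2.4.6, pandas 2.3.3), and all cover counting error only. The limit for a count of 0 is 3 counts. A gene was counted as different at a ratio of at least 2 with at least 50 UMIs over both classes. Reads of overlapping genes were not separated beyond the counting of the authors. Positions are from GENCODE vM21. The calculations were tested on simulated counts. The named genes are all 9 members, pathway genes at 2-fold and 20 CPM or with their highest class outside the medulla, and the 3 most similar genes of each member, and 1 pathway gene that this rule names is not reported here. The members, markers and gene lists were chosen with earlier results of these data known. Figures were drawn with matplotlib 3.10.9.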

Additional observations from a re-analysis of the deposited data

Results flagged for a closer look

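Signal of the 9 genes was also present in barcodes that no comparison used, above the endothelial-like levels of 14.1 CPM for *Th* and 71.2 CPM for *Pnmt*. The 244 cells with medullary markers beside those of another type, of which Scrublet called 58.6% as doublets, had 1338 CPM of *Th* and 5032 CPM of *Pnmt*. In the 513 cells of clusters with markers of more than 1 type, 67.4% of them called, the levels were 399.8 CPM and 1620.2 CPM. The unnamed cluster of 43 cells, led by *Ccl5*, *Gzma* and *Nkg7*, had 67.2 CPM and 319 CPM. The 1075 barcodes outside the cell filter had 643 CPM and 2543 CPM. Where this RNA came from was not tested.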

How the results depend on the processing

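No paired analysis was possible because the series here holds 1 library, and for the same reason no replicate could be left out. The 17 alternatives gave 576 values, of which 457 moved by less than the counting interval or, for counts, by at most 1.5 times, 119 moved by more and none that was called turned its direction. Of the 9 noradrenaline to adrenaline ratios, 7 stayed on 1 side of 1 throughout. *Dbh* fell to 0.942 as UMIs per cell, and *Gch1* ran from 0.474 to 1.02 between the sets of cells with *Xist* or Y-linked UMIs. *Pnmt* ranged from 0.00839 with the endothelial-like level subtracted to 0.0924 with cells split by their own markers, *Slc6a2* from 0.0556 to 0.235, *Ddc* from 1.83 to 2.58, *Slc18a2* from 2.59 to 4.13, *Slc18a1* from 1.46 to 2.11, *Th* from 0.470 to 0.641 and *Maoa* from 0.371 to 0.806. With the endothelial-like level subtracted, *Maoa* gave no ratio. UMIs per cell multiply every ratio by 0.781, and on that scale 1 of the 9 genes was at least 2-fold higher in noradrenaline cells and 4 lower, as were 257 and 1230 of the 9705 genes (2.65% and 12.7%). In cells with *Xist* alone *Slc18a1* was at 2.11 (1.63 to 2.71) and *Gch1* at 0.474 on 12 noradrenaline UMIs, each past 2-fold there. How many of all genes were past 2-fold in these cells was not counted. With no minimum of UMIs, 2118 genes were higher and 4377 lower, in place of 447 and 681. The shares of cells with *Th*, *Ddc* and *Dbh* together were 72.9% and 78.1% (adrenaline and noradrenaline) under a stricter filter (1000 genes or more, mitochondrial UMIs up to 10%), 36.8% and 40.6% at 2 UMIs or more, and 17.3% and 23.4% after thinning. The causes were not tested. Transitioning adrenaline-like cells were no separate cluster at a resolution of 0.2, with 30 principal components or with the 9 genes among the variable features, and sustentacular-like cells were none under the stricter filter. All 9 genes kept their highest level in a medullary class under the 6 alternatives that remade the classes. For *Maoa* the main value rested on transitioning adrenaline-like cells, at 38.1 CPM (24.9 to 55.8) against 30.2 CPM in cortex-like cells. As that class was not separate under some of these alternatives, its call there is no firm result. The levels of *Gch1* and *Maoa* in cortex-like cells stayed at least 87.6 and 252 times the expected number, and *Slc18a2* in endothelial-like cells at least 32.3 times. Counting depth limits *Maoa* and, in noradrenaline cells, *Slc6a2* most. At least 10 times the expected number were 2 genes in cortex-like and 3 in endothelial-like cells. Only the 9 genes were counted, so no share over all genes stands beside this. The 10-fold line was chosen after the values had been seen. So was the pairing of the sets of cells with *Xist* or Y-linked UMIs.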
